A study of Mus musculus with 8 samples.

Results

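The interleukin-6 (IL-6) family and its signaling axis were followed through 10 genes in primary lung fibroblasts (pFBs) of WT mice and of mice expressing human IGFBP5 (hIGFBP5). The genes were taken by name from the 54532 entries of the gene table, by their role, but with earlier results of these data known. They are the cytokine genes *Il6*, *Lif*, *Il11* and *Clcf1*, the receptor genes *Il6ra*, *Il6st*, *Osmr* and *Lifr*, the transcription factor gene *Stat3* and the inhibitor gene *Socs3*. RNAseq libraries were made from cultured pFBs of female mice of the C57/black background, 4 WT and 4 HOMO. HOMO pFBs came from mice homozygous for a CRISPR/Cas9 knock-in that expresses hIGFBP5 in all tissues from an elongation factor promoter, whereas WT pFBs lack this insertion. Cells of both genotypes were grown in serum-containing medium with no further treatment, and the age of the mice was not given in the sources used here. Libraries keep the names of their labels, WT1 to WT4 for one genotype and HOMO1 to HOMO4 for the other, and n is the number of libraries. The labels do not say which mouse each library came from, although the study's text speaks of differences between mice, so p-values measure the spread between these libraries, which may be technical.

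Cytokines of the IL-6 family share the receptor chain gp130, the product of *Il6st*. IL-6, IL-11 and cardiotrophin-like cytokine (CLCF1) first bind a specific receptor chain before gp130 is engaged, while LIF and oncostatin M bind gp130 together with the LIF receptor or the oncostatin M receptor. Janus kinases on these receptors phosphorylate STAT3, which then drives genes that include *Socs3*, whose product blocks the receptor-bound kinases. Fibroblasts are a known source of IL-6 and respond to this family in wound repair and fibrosis.

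*Il6* lies on the plus strand of chromosome 5 at chr5:30013114-30019981, *Stat3* on the minus strand of chromosome 11 at chr11:100885098-100939540, *Socs3* on the minus strand at chr11:117966079-117970047 and *Lif* on the plus strand at chr11:4257557-4272514, all in GRCm38. Upstream stretches of *Il6* and *Socs3* are shown because these were the members with the largest called changes down and up, and because both hold the letters of motifs searched for. The sequences are from RefSeq on GRCm38.p6, are written 5′ to 3′ on the strand of the gene, and hold 0 bases of an annotated exon of their gene. The first is chr5:30012864-30013113, the 250 bases before the start of *Il6*, with capitals marking, from left to right, an AP-1 match, a CRE match, a C/EBP match and an NF-kB match.
*Il6*: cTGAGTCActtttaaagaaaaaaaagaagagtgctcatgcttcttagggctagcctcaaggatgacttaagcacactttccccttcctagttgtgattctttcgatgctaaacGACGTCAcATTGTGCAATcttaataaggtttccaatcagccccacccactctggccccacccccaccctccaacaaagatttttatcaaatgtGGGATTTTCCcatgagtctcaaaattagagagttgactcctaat
The second is chr11:117969467-117969616, which covers bases -250 to -101 from the RefSeq start of *Socs3* at 117969366, with capitals marking a STAT match. It lies upstream of the protein-coding transcript, which starts at 117969186 in GENCODE, and in an intron of a noncoding transcript that extends the gene to 117970047.
*Socs3*: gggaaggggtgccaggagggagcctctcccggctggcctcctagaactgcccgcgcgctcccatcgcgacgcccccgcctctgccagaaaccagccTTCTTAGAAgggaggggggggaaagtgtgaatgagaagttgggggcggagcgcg

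The 5 motifs were searched by letter on both strands of the 250 bases before each annotated start. The STAT letters TTCNNNGAA were present in 7.02% of 32851 such windows of all genes, the NF-kB letters (GGG and TTTCC with 2 bases between them) in 1.41%, the AP-1 letters TGANTCA in 6.75%, the C/EBP letters (ATTG and CAAT with 2 bases between them) in 0.417% and the CRE letters GACGTCA in 2.78%. In *Il6*, the leftmost bases of the matches lie at -249 for AP-1, -137 for CRE, -129 for C/EBP and -44 for NF-kB. The STAT match of *Socs3* starts at -154, and AP-1 matches start at -228 in *Lif* and at -98 in *Il11*. Windows were found for 9 of the 10 genes, and those of *Il6ra*, *Il6st*, *Osmr*, *Lifr* and *Stat3* held none of the 5 motifs. A match describes letters and not binding.

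Between 17236521 and 31987790 reads were counted per library, and levels are given as CPM, counts scaled to a fixed library size after edgeR's TMM method. At these depths 3 counts, taken as the floor of counting, were worth 0.0938 to 0.174 CPM before the TMM scaling. Near-identical libraries were WT1 with WT2, HOMO1 with HOMO2 and HOMO3 with HOMO4, with coefficients of variation of 4.71% to 7.65% within these 3 pairs against 30.1% to 56.5% in the 9 other pairs of a genotype. Results are therefore also given with each near-identical pair summed, which left 3 WT units against 2 HOMO units and called 0 of 16130 genes in edgeR, although 2057 had an unadjusted p under 0.05. WT3 stood apart in mouse *Igfbp5*, with 7130 counts against 112 to 225 in the other WT libraries and 24 to 57 in HOMO. The mouse gene does not check the insertion, and the human transgene was not analysed here. The 7 fibroblast markers, of which 0 were called by edgeR and 3 had an unadjusted p under 0.05, summed to 9372 to 13450 CPM in WT and 12170 to 21910 CPM in HOMO, and most of this sum was *Col1a1* and *Col1a2*. Fold changes were above 0 for 4 of them and below 0 for *Thy1*, *Dcn* and *Lum*, with *Thy1* at 207 CPM in WT and 67.4 CPM in HOMO (log2 fold change -1.62, adjusted p = 0.116 in edgeR).

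DEGs between HOMO and WT were genes whose log2 fold change exceeded 0.6 in size with an adjusted p below 0.05 in edgeR's quasi-likelihood test with Benjamini-Hochberg adjustment over all 14150 tested genes. This called 12.1% of tested genes, 5.94% upregulated and 6.18% downregulated. Of the 10 members, 9 were tested and 3 were called: *Il6* was downregulated and *Stat3* and *Socs3* were upregulated. The libraries of the genotypes did not overlap for 4 members, *Il6* lower in HOMO and *Lif*, *Stat3* and *Socs3* higher, against 27.3% of tested genes without overlap (13.4% lower and 14% higher). The median log2 fold change was 0.06 over the 9 tested members and -0.04 over all tested genes, so the members did not move one way. The receptors, the shared chain among them, did not pass the test.

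**Figure D1:**
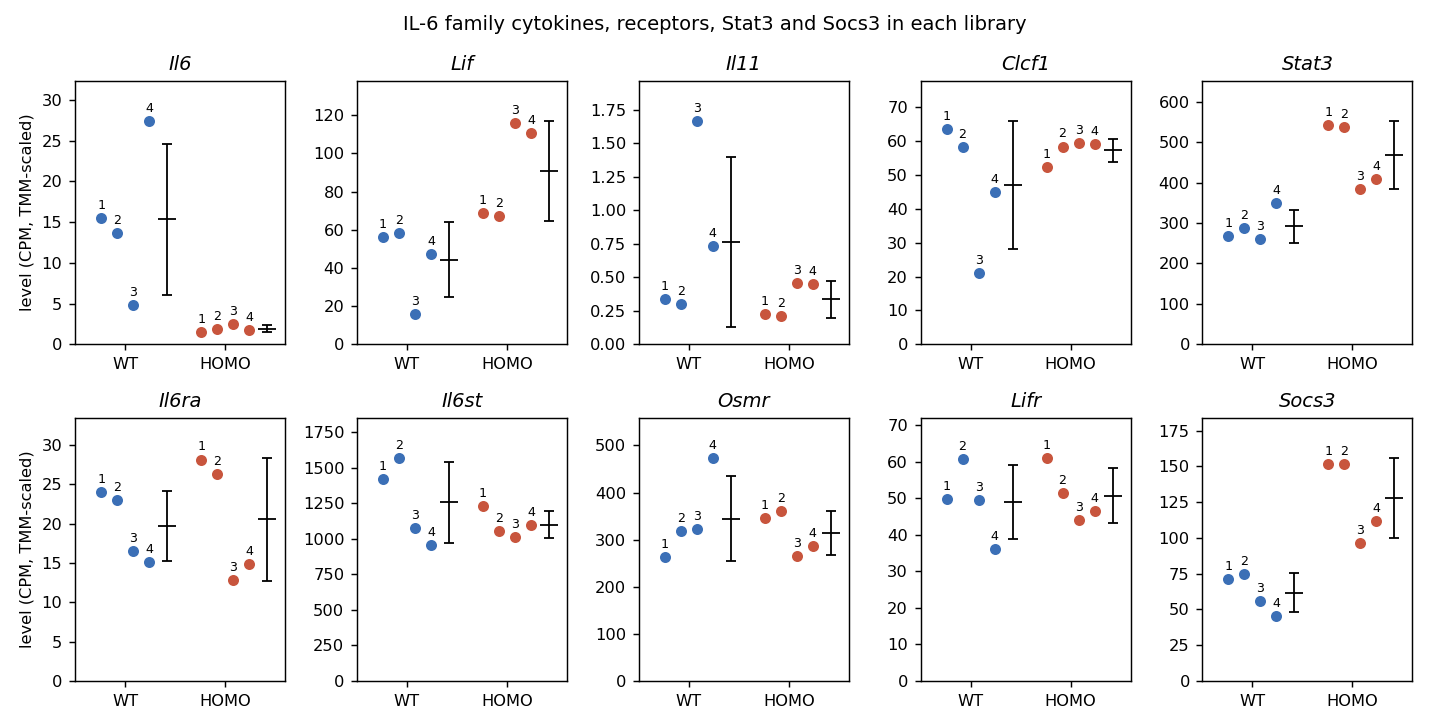
Level of each of the 10 genes in the 4 WT (blue) and 4 HOMO (red) libraries, as TMM-scaled CPM on linear axes from 0; points carry the replicate number, and the bars beside them are the mean ± SD. *Il6* sat between 4.82 and 27.4 CPM in WT and between 1.47 and 2.48 CPM in HOMO, while *Lif*, *Stat3* and *Socs3* were higher in every HOMO library than in any WT library.

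Among the cytokines, *Il6* showed the largest fold change of the 9 tested members. It was counted at 15.5, 13.6, 4.82 and 27.4 CPM in WT1 to WT4 and at 1.47, 1.91, 2.48 and 1.75 CPM in HOMO1 to HOMO4. Every HOMO library was below every WT library, and the spread within WT, with WT3 lowest and WT4 highest, was wider than that within HOMO. The mean fell from 15.3 ± 9.30 CPM in WT to 1.90 ± 0.426 CPM in HOMO (SD, n = 4 each). The log2 fold change was -3.01 (SE 0.49, 95% interval -4.12 to -1.90), an 8.06-fold lower level, with an adjusted p of 0.00856 in edgeR. *Il6* stayed a DEG when any single library was left out, with log2 fold changes of -3.31 to -2.57. With near-identical libraries summed the fold change was also -3.01, but the adjusted p in edgeR was 0.296.

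*Il6* is also made by macrophages, and macrophage markers differed between these libraries. The 6 markers summed to 112, 144, 1904 and 1123 CPM in WT1 to WT4 and to 25.4, 23.8, 138 and 160.1 CPM in HOMO1 to HOMO4, and all 6 had fold changes below 0, although 0 of 6 were called by edgeR and 4 had an unadjusted p under 0.05. The sums of the genotypes overlapped, with WT3 and WT4 highest. The part of macrophages in the *Il6* values was not tested. In bulk libraries fewer cells of a type and less RNA per cell cannot be told apart.

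*Lif* encodes leukemia inhibitory factor, which signals through the LIF receptor and gp130. Its levels were 56.0, 58.4, 15.7 and 47.5 CPM in WT1 to WT4 and 68.6, 67.3, 116 and 111 CPM in HOMO1 to HOMO4. All HOMO libraries were above all WT libraries, with HOMO3 and HOMO4 the highest and WT3 far below the rest. The means were 44.4 ± 19.7 CPM and 90.6 ± 26.3 CPM (SD, n = 4 each). The log2 fold change of 1.03 (SE 0.39, 95% interval 0.14 to 1.92) did not pass the test, with an adjusted p of 0.111 in edgeR. With library weights in limma-voom it was called, at 0.74 and an adjusted p of 0.00838.

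*Clcf1*, the gene of the cytokine CLCF1, was counted at 63.5, 58.3, 21.002 and 45.1 CPM in WT and at 52.4, 58.5, 59.4 and 59.3 CPM in HOMO. The HOMO libraries lay within the WT range, and WT3 was again lowest. Its log2 fold change was 0.29 (SE 0.30, 95% interval -0.39 to 0.97, adjusted p = 0.541 in edgeR). Of its exon bases, 8.17% are shared with the gene AC109138.7 on the same strand, and reads there cannot be assigned between them.

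*Il11*, a cytokine known for a profibrotic role in fibroblasts, was near the floor of counting. Its counts were 6, 7, 29 and 19 in the WT libraries and 5, 7, 9 and 9 in the HOMO libraries, and it was too low for the edgeR test. The genotypes overlapped, and WT3 and WT4 held the highest counts. A two-sided exact permutation test on CPM gave p = 0.286 for means of 0.759 ± 0.635 CPM in WT and 0.336 ± 0.137 CPM in HOMO (SD, n = 4 each), where 0.0286 is the smallest p this design allows. In WT3, genes of chromosomes 7 and 3, which carry *Il11* and *Il6ra*, lay a median of 0.36 and 0.37 (log2) above the mean of the other WT libraries, and the part of this shift in the values of *Il11* and *Il6ra* was not tested.

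Compared on the scale of RPKM, which divides CPM by exon length, the make-up of the 4 cytokine transcripts differed between the genotypes. *Il6* held 17.7%, 16.3%, 16.7% and 32.8% of the summed cytokine RPKM in WT1 to WT4, and 1.72% to 2.48% in HOMO. *Lif* held 30.3% to 38.9% in WT and 48.8% to 61.2% in HOMO, and *Clcf1* held 34.5% to 46.3% and 35.9% to 48.4%. The level of *Lif* was 0.967 to 2.39 times that of *Il6* in WT and 19.7 to 35.3 times in HOMO. The summed RPKM itself overlapped, from 11.9 to 36.1 in WT and from 30.3 to 43.4 in HOMO, with WT3 lowest.

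**Figure D2:**
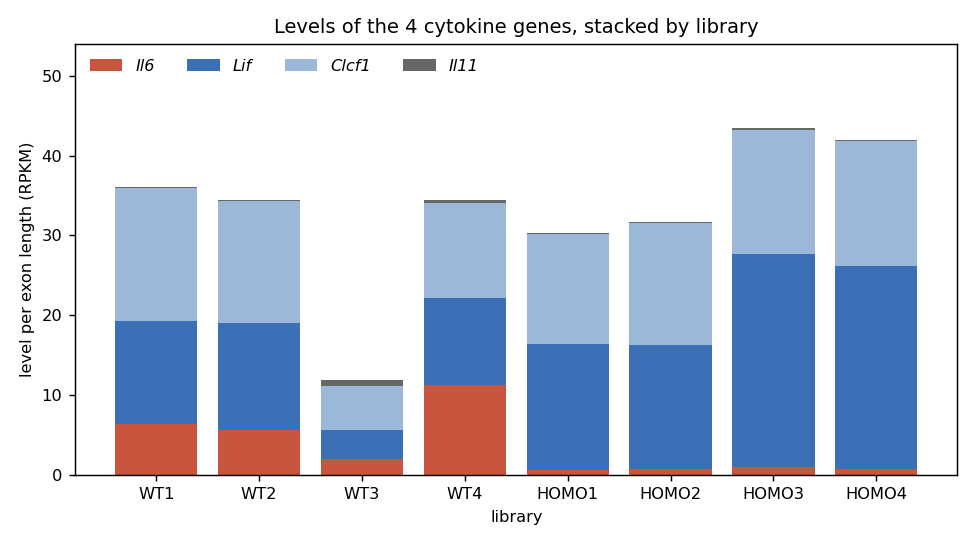
Level per exon length (RPKM, linear axis from 0) of *Il6*, *Lif*, *Clcf1* and *Il11*, stacked for each of the 8 libraries. The *Il6* segment made up 16.3% to 32.8% of the stack in WT libraries and 1.72% to 2.48% in HOMO libraries, and WT3 had the lowest stack at 11.9 RPKM.

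None of the 4 receptor genes was called. *Il6ra*, the specific IL-6 receptor, was at 24.1, 23.1, 16.5 and 15.2 CPM in WT1 to WT4 and at 28.2, 26.4, 12.8 and 14.9 CPM in HOMO1 to HOMO4. HOMO1 and HOMO2 were above the WT libraries and HOMO3 and HOMO4 below them, so the HOMO range enclosed that of WT. *Il6ra* had a log2 fold change of 0.06 (SE 0.30, 95% interval -0.61 to 0.74, adjusted p = 0.912 in edgeR).

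*Il6st*, the gene of gp130, was counted at 1422, 1569, 1077 and 955 CPM in WT and at 1231, 1057, 1009.5 and 1096 CPM in HOMO, with all HOMO values inside the WT range. Its log2 fold change was -0.19 (SE 0.19, 95% interval -0.63 to 0.25, adjusted p = 0.527 in edgeR). With library weights in limma-voom it was -0.49, past the p threshold (adjusted p = 0.00263) and under the fold threshold. *Il6st* lies on chromosome 13, where the median tested gene had a log2 fold change of -0.21. *Osmr*, the oncostatin M receptor gene, was at 264, 318, 322 and 474 CPM in WT and 346, 361, 264 and 286 CPM in HOMO. The genotypes overlapped, with WT4 highest, and the log2 fold change of *Osmr* was -0.13 (SE 0.20, 95% interval -0.60 to 0.33, adjusted p = 0.691 in edgeR). *Lifr*, the LIF receptor gene, ranged from 36.0 to 60.8 CPM in WT and from 44.0 to 61.0 CPM in HOMO. Its log2 fold change was 0.05 (SE 0.18, 95% interval -0.37 to 0.47, adjusted p = 0.884 in edgeR). These intervals reach from -0.63 to 0.74 on the log2 scale, and do not show that the receptor levels were equal.

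*Stat3* and its target and inhibitor gene *Socs3* were both upregulated. *Stat3* was at 269, 288, 261 and 350.5 CPM in WT1 to WT4 and at 543, 538, 384 and 408 CPM in HOMO1 to HOMO4. The lowest HOMO library, HOMO3, was above the highest WT library, WT4, and HOMO1 and HOMO2 stood above the other HOMO pair. The log2 fold change was 0.68 (SE 0.17, 95% interval 0.29 to 1.07) with an adjusted p of 0.0368 in edgeR. The call was lost when WT1, WT2, HOMO1, HOMO2 or HOMO4 was left out, with adjusted p between 0.0584 and 0.118 in edgeR, without a filter on low counts (adjusted p = 0.0623) and with near-identical libraries summed, at a log2 fold change of 0.67 and an adjusted p of 0.399. *Stat3* shares 0.756% of its exon bases with *Stat5a* on the opposite strand, and whether counting used strand was not given in the sources used here.

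*Socs3* was at 71.5, 74.5, 55.8 and 45.4 CPM in WT1 to WT4 and at 152, 152, 96.4 and 112 CPM in HOMO1 to HOMO4. As for *Stat3*, the genotypes did not overlap and HOMO1 and HOMO2 were highest. The means were 61.8 ± 13.6 CPM and 128 ± 28.2 CPM (SD, n = 4 each). The log2 fold change was 1.05 (SE 0.22, 95% interval 0.56 to 1.54), a 2.07-fold higher level, with an adjusted p of 0.0188 in edgeR. The call was lost without HOMO1 (adjusted p = 0.0677) or HOMO2 (adjusted p = 0.0690), and with near-identical libraries summed, where edgeR gave 1.15 and an adjusted p of 0.298.

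**Figure D3:**
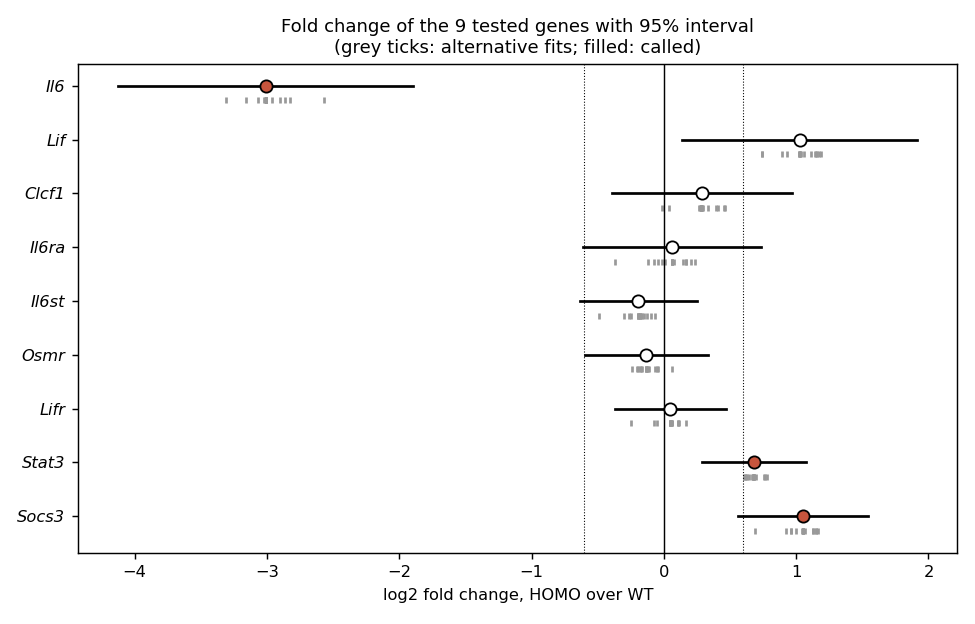
Log2 fold change of HOMO over WT for the 9 tested genes, with 95% intervals as lines, filled points for DEGs, grey ticks for the alternative fits and dotted lines at a log2 fold change of 0.6 in each direction. *Il6* lay at -3.01, *Stat3* at 0.68 and *Socs3* at 1.05, the interval of *Lif* ran from 0.14 to 1.92, and the intervals of *Clcf1* and the 4 receptor genes crossed 0.

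On the RPKM scale, *Il6st* was the most abundant of the 10 transcripts in both genotypes, at 113 ± 25.9 RPKM in WT and 98.97 ± 8.57 RPKM in HOMO (SD, n = 4 each). *Stat3* came next, at 30.7 RPKM in WT, where it overlapped *Osmr* (28.4 RPKM), and at 49.1 RPKM in HOMO, where it overlapped *Socs3* (44.2 RPKM). In WT each gene from *Stat3* down to *Lifr* overlapped its neighbor in the order, which ran *Socs3* (21.4 RPKM), *Clcf1* (12.3), *Lif* (10.2), *Il6* (6.32) and *Lifr* (4.55). *Il6ra* at 2.28 RPKM and *Il11* at 0.365 RPKM were the lowest in WT and did not overlap with their neighbors. In HOMO the order below *Socs3* was *Osmr* (25.9 RPKM), *Lif* (20.8), *Clcf1* (15.1), *Lifr* (4.71), *Il6ra* (2.38), *Il6* (0.784) and *Il11* (0.161). *Osmr* overlapped *Lif* and *Lif* overlapped *Clcf1*, and the genes below were apart from each other. *Il6* thus stood seventh in WT, above *Lifr* and *Il6ra*, and ninth in HOMO, below both.

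Another 74 genes of the pathway were listed by role, of which 65 were tested and 7 were called, 4 upregulated and 3 downregulated. This is 10.8% of those tested, near the 12.1% called over all genes. DEGs were found among receptor sheddases, Janus kinases and STAT3 targets. Of the 3 other receptor genes tested, the 5 other STAT genes, the 15 SOCS, PIAS and phosphatase genes and the 15 regulators of *Il6* transcription and mRNA decay, 0 were called by edgeR, with 0, 2, 1 and 2 at an unadjusted p under 0.05.

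**Figure D4:**
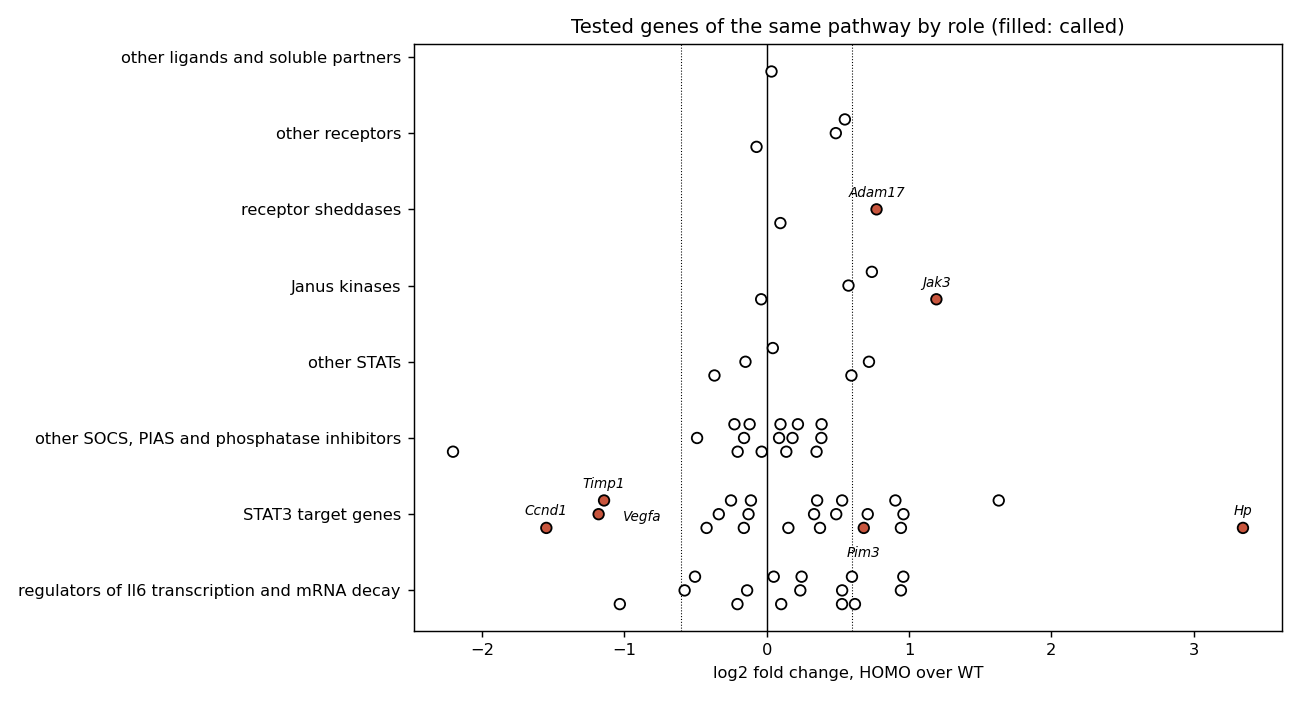
Log2 fold change of HOMO over WT for the 65 tested pathway genes, in rows by role, with filled, named points for the 7 DEGs and dotted lines at 0.6 in each direction; the vertical offset within a row carries no value. *Hp* (3.35) and *Jak3* (1.19) were furthest to the right among the DEGs and *Ccnd1* (-1.55) furthest to the left.

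Among the other ligands, *Ctf1* (cardiotrophin) had a log2 fold change of 0.03 with WT3 highest (in limma-voom with library weights it was called, at 0.90 and an adjusted p of 0.00291), *Osm* had 1 to 7 counts per WT library and 0 to 2 per HOMO library, and *Il31* had 0 counts in every library.

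The receptor for IL-11, *Il11ra1*, was at 58.7 ± 37.1 CPM in WT and 55.9 ± 5.50 CPM in HOMO (SD, n = 4 each), with a log2 fold change of -0.07 and an adjusted p of 0.921 in edgeR. With library weights in limma-voom it was called upregulated, at 0.70 and an adjusted p of 0.00192. *Adam17*, which encodes a protease that sheds the IL-6 receptor from the cell surface, was upregulated, with 47.7 ± 9.18 CPM in WT and 81.5 ± 19.9 CPM in HOMO (SD, n = 4 each) and a log2 fold change of 0.77 (SE 0.21, adjusted p = 0.0464 in edgeR). This call was lost in 6 of 8 fits that left out a library. *Adam17* lies on chromosome 12, where the median tested gene had a log2 fold change of 0.24. *Adam10*, the other listed sheddase gene, had higher levels and was not called. It was at 225 ± 35.3 CPM in WT and 241 ± 10.7 CPM in HOMO (SD, n = 4 each), and the genotypes overlapped. Its log2 fold change was 0.10 (SE 0.14, adjusted p = 0.673 in edgeR).

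*Jak3* was the most firmly called of the Janus kinases, at 15.7, 16.3, 13.2 and 14.8 CPM in WT1 to WT4 and 32.3, 36.9, 33.1 and 34.9 CPM in HOMO1 to HOMO4. The libraries of each genotype lay close together and far from the other genotype. Its log2 fold change was 1.19 (SE 0.13, adjusted p = 0.00228 in edgeR), called without any single library and at an adjusted p of 0.237 with near-identical libraries summed. JAK3 is best known as the kinase of the common gamma chain receptors, and not of gp130. Its gene is on chromosome 8, where the median log2 fold change was 0.38, and it shares 7.55% of its exon bases with *Insl3*.

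The kinases that serve gp130 showed smaller differences. *Jak1* had a log2 fold change of -0.04 (SE 0.22, adjusted p = 0.926 in edgeR). *Jak2* had no overlap between genotypes but did not pass the test, at 0.74 (SE 0.24, adjusted p = 0.0745 in edgeR), and *Tyk2* was past the p threshold at 0.57 (adjusted p = 0.0334), under the fold threshold. Among other STATs, *Stat5a* had a log2 fold change of 0.72 (adjusted p = 0.0605 in edgeR and 0.0363 in DESeq2), and *Stat5b* one of 0.60 that was past the p threshold (adjusted p = 0.0372) and just under the fold threshold. *Ptpn11*, which encodes the phosphatase SHP2 recruited to gp130, was at 334 ± 64.3 CPM in WT and 238 ± 13.5 CPM in HOMO (SD, n = 4 each) with an adjusted p of 0.0757 in edgeR. *Tyk2*, *Stat5b* and *Nfkbia*, the latter an inhibitor of NF-kB with a log2 fold change of -0.58 (adjusted p = 0.0316 in edgeR), lacked only the fold threshold. *Tyk2* was singled out after its values were seen, as were the other two.

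Of 22 known STAT3 target genes, all tested, 2 were upregulated and 3 downregulated, 22.7% called against 12.1% of all tested genes (5.94% up and 6.18% down). The median log2 fold change of the 22 was 0.34, and 17 did not pass the test. *Hp*, the acute-phase protein haptoglobin, had the largest rise, from 4.56, 5.96, 33.97 and 13.8 CPM in WT1 to WT4 to 153, 168, 126 and 144 CPM in HOMO1 to HOMO4. HOMO libraries were all above WT libraries, and WT3 was the highest of WT. Its log2 fold change was 3.35 (SE 0.60, adjusted p = 0.0123 in edgeR), called without any single library, on chromosome 8 as *Jak3* is. A fit that leaves out 1 library of a near-identical pair keeps the other. With near-identical libraries summed *Hp* was at 3.10, with an adjusted p of 0.252 in edgeR. *Pim3*, a survival kinase gene, was upregulated by 0.68 (SE 0.18, adjusted p = 0.0407 in edgeR), a call lost in 7 of 8 fits that left out a library, all but the one without WT3.

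The downregulated targets were *Vegfa*, *Timp1* and *Ccnd1*. *Vegfa*, the angiogenic growth factor, was at 341 ± 94.5 CPM in WT and 151 ± 9.10 CPM in HOMO (SD, n = 4 each), for a log2 fold change of -1.18 (SE 0.21, adjusted p = 0.0123 in edgeR). *Timp1*, an inhibitor of matrix metalloproteinases, was at 424 ± 107 CPM in WT and 192 ± 42.1 CPM in HOMO (SD, n = 4 each), for a log2 fold change of -1.14 (SE 0.23, adjusted p = 0.0182 in edgeR). Both calls were lost without HOMO1 or without HOMO2, at adjusted p of 0.0526 and 0.0534 for *Vegfa* and 0.0692 and 0.0714 for *Timp1*. *Ccnd1*, the gene of cyclin D1, was at 299 ± 113 CPM in WT and 102 ± 45.4 CPM in HOMO (SD, n = 4 each), with a log2 fold change of -1.55 (SE 0.40, adjusted p = 0.0376 in edgeR) that stayed called only without WT3 among the fits that left out a library. It shares 23.4% of its exon bases with *LTO1* on the opposite strand.

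Proliferation genes differed between libraries of the same genotype. The 6 proliferation genes summed to 1213, 1072, 226 and 116 CPM in WT1 to WT4 and to 219, 213, 934 and 846 CPM in HOMO1 to HOMO4, and 0 of 6 were called by edgeR, with 0 at an unadjusted p under 0.05. *Ccnd1* was 409, 357, 148 and 283 CPM in WT and 68.2, 58.5, 144 and 139 CPM in HOMO, and the part of proliferation in these values was not tested. Of the other target and regulator genes with high levels, *Fosl2* (0.33), *Hif1a* (0.49), *Cebpb* (0.53) and *Cebpd* (0.94) had log2 fold changes above 0. Their adjusted p were 0.307, 0.319, 0.234 and 0.167 in edgeR. *Junb* (0.90) and *Rela* (0.05), also at high levels, were above 0 too. *Bcl2l1* (-0.42), *Il4ra* (-0.25), *Mcl1* (-0.16) and *Nfkb2* (-0.14) were below 0, and edgeR called none of these genes. Over the whole lists, 13 of the 22 targets were above 0 and 9 below. Of the 15 regulators, 10 were above 0 and 5 below. *Hif1a* was called without WT4 (0.91, adjusted p = 0.0219 in edgeR) and *Cebpb* without WT3 (0.82, adjusted p = 0.0387 in edgeR), and limma-voom with library weights called *Hif1a* (1.07), *Cebpb* (1.06) and *Cebpd* (0.94). *Cebpd* was highest in HOMO1 and HOMO2, at 372 and 393 CPM, as *Stat3* and *Socs3* were.

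The 3 tested genes whose log2 CPM followed *Il6* most closely over the 8 libraries were *Ripk2* (Pearson's r = 0.995), *Vegfa* (0.989) and *Ctnna1* (0.988). Those closest to *Stat3* were *Mocs1* (0.997), *Fbxo41* (0.995) and *Zfp638* (0.994), and those closest to *Socs3* were *Ppp1r26* (0.990), *Dleu2* (0.989) and *D030062O11Rik* (0.988). These values are descriptions over 8 libraries that hold the genotype difference and the near-identical pairs.

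Markers of other cell types than macrophages ranged from near 0 to levels above those of *Il6*. Lymphocyte markers summed to at most 0.348 CPM in any library and endothelial markers to at most 8.01 CPM. Epithelial markers summed to 0.0574 to 0.542 CPM in WT, near the floor of counting, and to 1.34 to 14.2 CPM in HOMO, without overlap. Only the cadherin gene *Cdh1* was tested. Its counts were 1, 8, 0 and 13 in WT1 to WT4 and 26, 47, 37 and 44 in HOMO1 to HOMO4. It was called upregulated (0.226 CPM in WT and 1.67 CPM in HOMO, log2 fold change 2.77, adjusted p = 0.0462 in edgeR). *Cdh1* passed the filter on low counts through its HOMO libraries, so this call is not separate evidence of a difference. *Epcam* was counted mainly in HOMO4 (45), and *Sftpc* and *Scgb1a1* mainly in HOMO2 (48 and 110) and HOMO3 (99 and 130). Mesothelial markers ranged from 51.7 to 226 CPM in WT and from 77.0 to 116 CPM in HOMO. Smooth muscle and pericyte markers ranged from 30.5 to 289 CPM in WT and from 8.17 to 90.6 CPM in HOMO, highest in WT3, with 1 of 5 called, downregulated. The part of these cells in the values of the members was not tested.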

How the data were processed

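RNAseq of 8 libraries of pFBs (4 WT, 4 HOMO) was analysed from the gene counts that the authors deposited, made with fastp, STAR on mm10 and featureCounts. The deposited table's name holds the word outlierout, and whether a library had been removed, which would bear on the spread within genotypes, is not given in the sources used here. The authors' own DESeq2 comparison was not used, and 0 per-sample columns were left aside. Of the 54532 entries, 53877 were matched by symbol to GENCODE M21 (GRCm38) for positions, exon lengths and overlaps, and upstream sequences were taken from RefSeq on GRCm38.p6. HOMO was compared with WT in edgeR 4.0.16 (quasi-likelihood F test, TMM, filterByExpr, Benjamini-Hochberg) under R 4.3.3, with DESeq2 1.42.0 and limma 3.58.1 as alternatives, and log2 CPM used a prior count of 2. The adjusted p threshold was 0.05 and that of the absolute log2 fold change 0.6. *Il11*, the only member outside the filter, was compared by exact permutation over 70 assignments. Other genes outside the filter were not tested. The fitting was tested on simulated data with 8 independent libraries. These lack the near-identical pairs, so the simulation cannot show how the pairs affect the calls. Figures were made with Python 3.11.15 and matplotlib 3.10.9.

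The members and gene lists were chosen with earlier results of these data known. The genes named were the 10 members, every called gene of the role lists and some of each with high levels. For *Il6*, *Stat3* and *Socs3* the 3 most correlated genes were named too. Level did not decide every choice, as *Il31* was named with 0 counts. *Stat6*, *Stat2*, *Socs5* and *Ptpn1* were high in their lists but were not described above. Their log2 fold changes were 0.04, -0.15, 0.22 and -0.12, and edgeR called none of them. *Tyk2*, *Stat5b* and *Nfkbia* were described as near the threshold after their values were seen. *Junb*, *Bcl2l1*, *Il4ra* and *Mcl1* were also named after their values were seen. A listed gene is not reported here and was left out of the lists after the fits.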

Additional observations from a re-analysis of the deposited data

Results flagged for a closer look

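Of 20 groups of 4 libraries tested for a single distant library, 2 passed Dixon's 95% critical value. Chance alone flags about 1 in 20 groups of independent values. These groups hold near-identical libraries, so that rate need not apply here. For *Lif*, WT3 was at 3.98 log2 CPM, far below the other WT libraries at 5.57 to 5.87. For *Clcf1*, HOMO1 was at 5.71 log2 CPM, below the other HOMO libraries at 5.87 to 5.89.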

How the results depend on the processing

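The direction of *Il6*, *Lif*, *Stat3* and *Socs3* held under all alternatives run, and the call of *Il6* under all except the summing of near-identical libraries, where 0 of 16130 genes passed. DEGs numbered 1716, against 2913 in DESeq2, 3573 in limma-voom with library weights and 0 with near-identical libraries summed, and 507 to 2192 when a library was left out. Members called numbered 3, against 0 with near-identical libraries summed and 1 to 3 when a library was left out. Other pathway genes called numbered 7, against 21 in limma-voom, 0 with the sums and 2 to 11 when a library was left out. Fold changes that had not passed the test changed sign: in limma-voom *Clcf1* was -0.015, *Il6ra* -0.37, *Lifr* -0.25, *Il11ra1* 0.70 (called there) and *Jak1* 0.0498, and with the sums *Ctf1* was -0.10. When a library was left out, *Il6ra* ran from -0.12 to 0.23, *Osmr* from -0.24 to 0.0615, *Lifr* from -0.074 to 0.17, *Ctf1* from -0.26 to 0.96, *Il11ra1* from -0.28 to 0.43 and *Jak1* from -0.19 to 0.20. The cause was not tested. Depth limits *Il11*, which has 5 to 29 counts per library.

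The labels link same-numbered WT and HOMO libraries by a number alone. Their deviations from the genotype means correlated at -0.09, -0.04, 0.01 and -0.12, and 0 of 4 correlated best with its own number. Near-identical libraries have almost the same deviations, so this check cannot decide whether same-numbered libraries were handled together. With the replicate number as a block, 947 DEGs and 4 other pathway genes were called, *Stat3* had an adjusted p of 0.0946, and *Il11ra1* (0.13) and *Jak1* (0.0175) changed sign.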
